A study of Mus musculus with 21 samples.

Results

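Tas1r1, Tas1r2 and Tas1r3 encode the receptor subunits for sweet and umami taste. They were taken as the 3 genes of that name in the deposited transcript annotation, out of 43193 gene symbols that could be placed in the deposited expression table. Each lay in 1 locus, so 3 of the 32052 loci of the table hold them. The libraries came from the circumvallate papilla at the back of the tongue of wild-type C57BL/6J mice, an inbred strain, aged 20 to 24 weeks. Of 21 libraries, 7 are labelled Ad lib, 7 Satiated and 7 Hungry, and the design text speaks of free access to food, fed mice and fasted mice. Papillae were dissected and the tissue is labelled taste bud, so RNA of the surrounding tissue can be present. The labels say nothing of the length of feeding or fasting, of pooling or of whether libraries came from separate animals.

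The receptors of this family belong to class C of the G protein-coupled receptors, which carry a large outer domain that binds the ligand. Tas1r3 pairs with Tas1r2 to sense sugars and sweeteners, and with Tas1r1 to sense amino acids such as glutamate. They work in type II taste cells, where a G protein, the phospholipase Plcb2 and the channel Trpm5 lead to release of ATP onto the taste nerve. In mice, Tas1r2 is known chiefly from taste buds at the back of the tongue and Tas1r1 from those at the front.

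The table gives a mean and a variance for each locus under 3 condition letters, and 0 loci differ between these in any column. No value exists for a single library or a feeding state, so Hungry, Satiated and Ad lib could not be compared for any of the 3 genes. A level here is the authors' mean over all libraries of fragments scaled for library depth. It is given for compatible fragments, those that match a transcript of the annotation, and for all fragments of the locus, called total. The SD beside it is the square root of the authors' variance (n = 21), and CV is that SD over the mean. The variance was taken within sets of libraries. At loci whose variance over squared mean fits fragments in a single library, the set sizes were 8 (474 loci), 7 (667 loci) and 6 (454 loci), with 1 further locus at the value for a set of 3. These sizes are not the 7, 7 and 7 of the labels, so the sets cannot be taken as the feeding groups. The value of 1 set of all libraries occurred at 0 loci. A difference between the sets would therefore not show in the SD or CV.

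The 3 genes have the same plan. All lie on chromosome 4 (GRCm38), Tas1r2 (gene identifier ENSMUSG00000028738) on the plus strand and the other two on the minus strand. Tas1r2 and Tas1r1 (ENSMUSG00000028950) are 12.4 Mb apart, and Tas1r1 and Tas1r3 (ENSMUSG00000029072) are 3.82 Mb apart. Each main coding transcript has 6 exons, all partly or wholly coding. The coding parts of exon 1 are 194, 191 and 191 bases long in Tas1r1, Tas1r2 and Tas1r3, and those of exon 2 are 307, 301 and 301. Exon 3 holds 762, 777 and 804 coding bases, and exon 6, the longest, holds 929, 926 and 959. The coding sequences span 842, 843 and 858 codons without the stop. Over aligned bases, Tas1r1 and Tas1r2 shared 57.6% of the coding sequence, Tas1r1 and Tas1r3 56.0%, and Tas1r2 and Tas1r3 55.6%. A like order and size of exons thus went with coding sequences that differed at more than 40 bases in every 100.

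Only Tas1r1 has a locus to itself, and the sequences at the borders show why. At the locus of Tas1r2 (chromosome 4, 139530548 to 139670280) the annotation holds 5 other symbols. These are Iffo2, an intermediate filament family gene, Aldh4a1, a mitochondrial enzyme of proline breakdown, the joined transcript Gm21969, and the short entries Mir7020 and Gm25571. Gm21969 links exons of Iffo2, Aldh4a1 and Tas1r2 in a single RNA, and GENCODE M21 tags it as a readthrough transcript subject to nonsense-mediated decay. It leaves Aldh4a1 at base 139645101, skips 8433 bases and enters Tas1r2 at base 139653535, which is 3 bases before the annotated start of Tas1r2 at 139653538. The exon it leaves ends 114553 bases from the locus start, against 114549 in the Aldh4a1 transcripts that share this exon. The last bases before the join thus lie past the end of that Aldh4a1 exon. The 30 bases around the join follow, with the side of Tas1r2 in capitals.

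Aldh4a1 to Tas1r2 join: ccgggcctcaggtgaGCTGGGCATCGTCTA

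The RefSeq window around the start of Tas1r2 (GRCm38.p6, chr4:139653288-139653587, plus strand, 250 bases before the start to 50 after it) is shown next. The bases just before that start also hold the end of the intron of the joined RNA. Promoter activity of the window was not tested. The capitals mark the AG that ends that intron.

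Tas1r2 start window: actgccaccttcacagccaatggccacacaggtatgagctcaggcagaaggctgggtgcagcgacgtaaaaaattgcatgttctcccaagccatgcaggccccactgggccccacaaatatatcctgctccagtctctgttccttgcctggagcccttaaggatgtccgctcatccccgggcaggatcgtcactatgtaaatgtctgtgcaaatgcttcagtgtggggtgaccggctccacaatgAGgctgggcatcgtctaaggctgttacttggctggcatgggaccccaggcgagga

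Beside the reference forms, the authors' assembly built 3 further transcripts at this locus from the reads, and 2 of them use the join. The longer of these starts in Iffo2 and has 34 exons. It contains 11 of the 12 Iffo2 junctions and 2 of the 6 junctions of Tas1r2, and ends inside the receptor gene as Gm21969 does. The other has 21 exons and 4816 bases, starts at the first exon of Aldh4a1 and runs to the annotated end of Tas1r2 at 139670280. It contains 13 of the 15 Aldh4a1 junctions and all 6 junctions of Tas1r2. How many fragments cross the join is not in the table, and an assembly guided by a reference can carry reference junctions over, so the share of Tas1r2 sequence that lies in joined RNA was not tested.

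Tas1r2 itself has 2 reference forms. The shorter runs from 139653549 to 139669855, the longer from 139653538 to 139670280, and they also differ inside exon 3. The form of 3047 bases keeps the exon whole, while that of 2524 bases lacks 87 bases (139659868 to 139659954), or 29 codons, so the reading frame is kept. The missing stretch starts with GT and ends with AG, the letters of a spliced intron. The 30 bases at the site are shown for both forms. The capitals mark what follows base 139659867.

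Tas1r2 whole exon 3: tggatcgtggtgctgGTGAGCGATGACGAT

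Tas1r2 short exon 3: tggatcgtggtgctgGAGGTTCTGCCTGTA

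The 21-exon assembled transcript has the short exon 3. The table gives no level per form, so the forms of Tas1r2 cannot be ranked.

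Tas1r1 also has 2 forms in the annotation, both reference entries, and no transcript at its locus was assembled beyond them. The coding form Tas1r1-201 has 6 exons and 2863 bases. The other has 5 exons and 4698 bases and is absent from GENCODE M21. It keeps the intron of 416 bases between exons 4 and 5 as part of a longer exon. Its exons also cover most of the intron of 1786 bases between exons 5 and 6. A fragment across either of 2 junctions is compatible with the coding form alone. These are shown with the downstream exon in capitals, on the minus strand (exon 4 ends at 152031321 and exon 5 begins at 152030904, exon 5 ends at 152030784 and exon 6 begins at 152028997).

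Tas1r1 exon 4 to 5: gggaagaacaatcagGTGCCTGTGTCAGTG

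Tas1r1 exon 5 to 6: ttctcaacacgagtgAGCTTCACACCTGCC

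Tas1r3 has 1 transcript of 3523 bases. It runs toward Dvl1, a dishevelled protein gene of Wnt signalling, and the last 36 bases of the 2 genes overlap on opposite strands (155859268 to 155859303). Their loci were joined through this overlap into 1 locus (chromosome 4, 155847402 to 155863362) with 13 transcripts, 12 of them of Dvl1. Of the 4 assembled transcripts there, all belong to Dvl1 and none extends Tas1r3. The sources used here do not say whether the libraries kept strand.

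**Figure D1:**
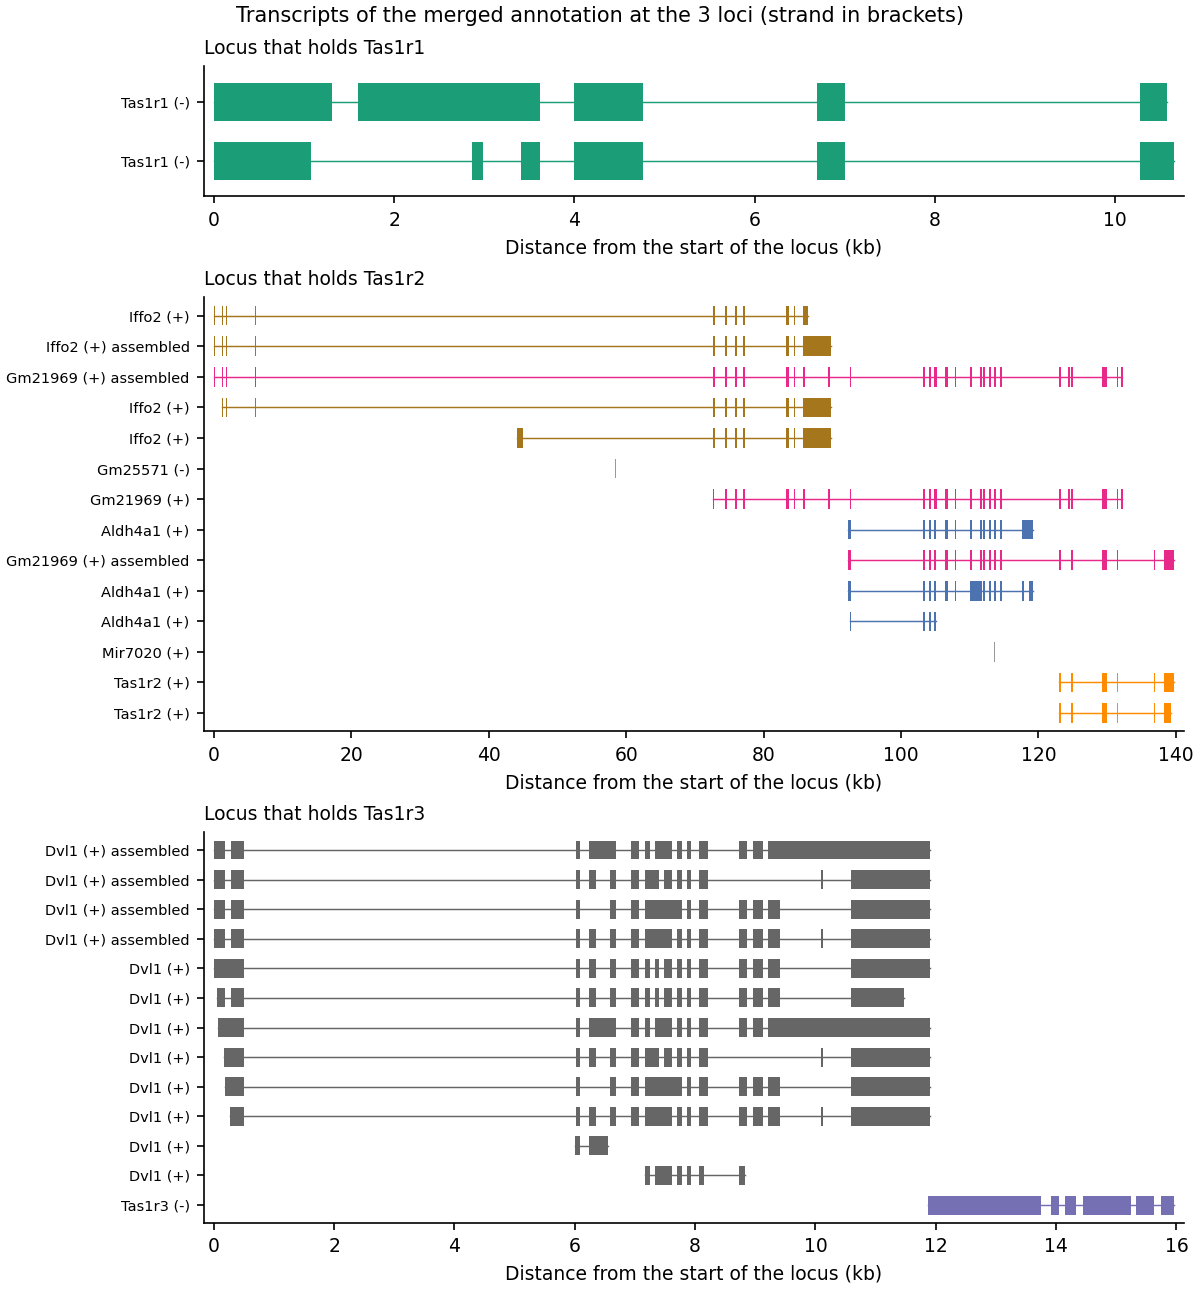
Exons (boxes) and introns (lines) of every transcript in the merged annotation at the loci of Tas1r1, Tas1r2 and Tas1r3, by distance in kb from the start of each locus, with the gene and strand at left and assembled transcripts so named. Tas1r1 stands alone, 2 assembled transcripts, labelled Gm21969, join Aldh4a1 to Tas1r2, and Dvl1 and Tas1r3 meet end to end.

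Tas1r1, the umami-specific subunit, had a mean of 602.9 compatible fragments per library (SD 114.6, n = 21, CV 0.190). Its total was 605.4 fragments (SD 115.8, n = 21), so 99.6% were compatible, a larger share than at 95.2% of the 13467 detected loci. A locus counted as detected at a mean of at least 10 compatible fragments. The Tas1r1 level was above that of 53.4% of detected loci, near the middle of the range.

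The locus of Tas1r2, the sweet-specific subunit, had 4149 compatible fragments (SD 493.2, n = 21, CV 0.119) and a total of 4367 (SD 534.3, n = 21). These belong to Iffo2, Aldh4a1, Tas1r2 and their joined forms together. The value is an upper limit for Tas1r2 and gives no lower one. Of the total, 95.0% were compatible.

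The locus of Tas1r3, the subunit common to both receptors, had 2686 compatible fragments (SD 282.0, n = 21, CV 0.105), shared with Dvl1. Its total was 4040.4 (SD 516.7, n = 21). The 1354 fragments between these, 33.5% of the total, matched no annotated transcript of either gene. A compatible share of 66.5% is lower than the lower quartile of 84.2% among the 4771 detected loci with several genes, whose median was 94.1%. Which of the 2 genes the unmatched fragments lie in is not given.

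**Figure D2:**
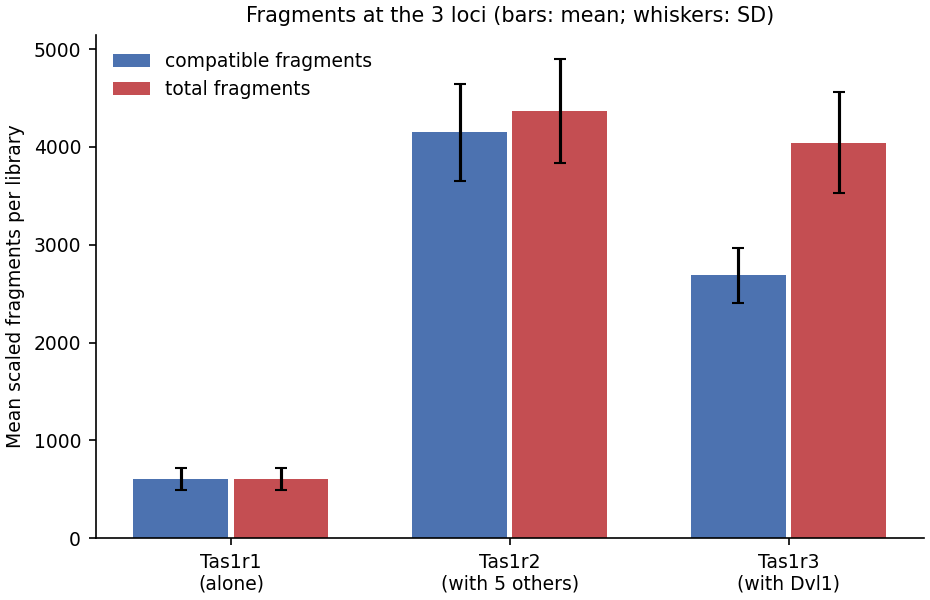
Mean scaled fragments per library (vertical axis, from 0) at the 3 loci, compatible (blue) and total (red), with whiskers for the authors' SD over 21 libraries. The pair of bars is level at Tas1r1 (602.9 and 605.4) and far apart at the locus of Tas1r3 and Dvl1 (2686 and 4040.4).

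Genes were compared per length, and whether fragments scale with length after priming with oligo(dT) was not tested. The length here was that of the longest reference transcript. Upper limits per kb hold for that length, and a shorter form would give a higher limit. On this scale Tas1r1 had 128 compatible fragments per kb (SD 24.4, n = 21), below the median of 154 over 8696 detected single-gene loci and above 46.0% of them. By the coding form alone it had 211 per kb (SD 40.0), above 56.7%. In this and later comparisons with the coding form, the other genes kept the length of their longest transcript. Which length applies depends on the unknown mix of its 2 forms. If every compatible fragment of its locus belonged to the 3047-base form of Tas1r2, that gene would have 1362 per kb, 10.6 times Tas1r1, or 6.47 times with the coding form of Tas1r1. The same limit for Tas1r3 was 762 per kb, 5.94 times Tas1r1, or 3.62 times with the coding form. With total fragments the Tas1r3 limit rose to 1147 per kb. Spread over the lengths of all 6 genes of its locus, the Tas1r2 fragments come to 237 per kb, and spread over Tas1r3 and Dvl1 those of the other locus come to 324. The limit for Tas1r2 would be higher with its form of 2524 bases. No order among the 3 receptor genes follows, since Tas1r2 and Tas1r3 have upper limits only and no lower ones.

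Most genes that carry the signal onward and have a locus of their own stood well above Tas1r1. Of the 18 symbols of the type II cascade, 17 were found and 16 detected, against 13467 of all 32052 loci. Of the 16, 8 had a locus of their own. Per kb, 7 of these 8 were higher than Tas1r1, and the median of the 8 was 3965. Pde1a, a phosphodiesterase with its own locus, was not detected (0.0351 compatible fragments). Gnat3, the G protein alpha subunit gustducin, had 19066 compatible fragments per kb (SD 2494, n = 21). Rgs21, a regulator of G protein signalling, had 8328 (SD 1439), and Gnb3, a G protein beta subunit, had 6398 (SD 772.4). Gna14, a further alpha subunit, had 4312 (SD 716.5). Nearest above Tas1r1 among these was Plcb2, with 550.6 per kb (SD 90.1). Calhm1, a subunit of the channel that releases ATP, was the 1 detected gene below it, at 41.3 per kb (SD 18.6), while the other subunit, Calhm3, had 3619 (SD 382.4). Neither neighbour came within the sum of the SDs of Tas1r1. By total fragments Calhm1 had 264 per kb and Tas1r1 129, so that order turned. Plcb2 had 2914 per kb by total. Pou2f3, a transcription factor needed for type II cells, had 1585 per kb (SD 163.9), above the limit for Tas1r3 by compatible and by total fragments. The other 8 detected genes share loci, so their levels per kb are upper limits too. These limits were 3131 and 2277 for the G protein subunits Gnb1 and Gng13, and 1880 and 1447 for the channels Trpm5 and Kcnq1. They were only 212 for Itpr3, the receptor that releases stored calcium, and 207 for the sodium channel Scn3a. Both, by their longest transcripts, lay near the 211 of Tas1r1 by its coding form. The limits for the channels Trpm4 (84.1) and Scn9a (14.5) lay below Tas1r1. A bulk level cannot tell fewer cells with a gene from less RNA in each.

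**Figure D3:**
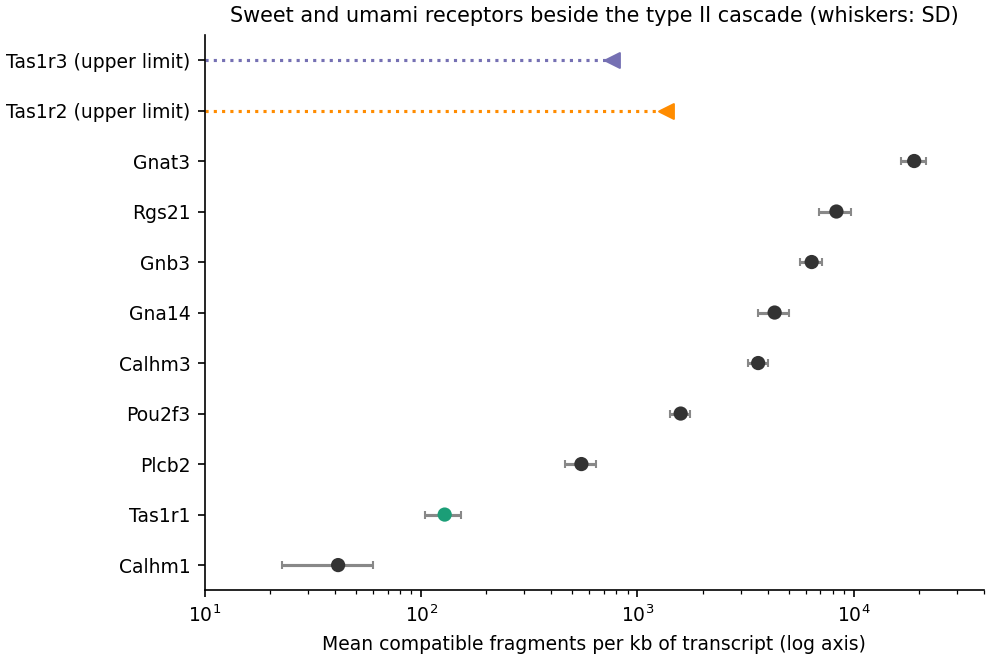
Mean compatible fragments per kb of the longest reference transcript (log axis) for Tas1r1 (green) and the detected cascade genes with a locus of their own, with whiskers for the authors' SD over 21 libraries, and the upper limits at that length for Tas1r2 and Tas1r3 (arrowheads with dotted lines). Tas1r1 at 128 lies between Calhm1 at 41.3 and Plcb2 at 550.6.

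Of the relatives of the receptors in class C with a locus of their own, 1 was above Tas1r1 per kb of its longest transcript. All 19 symbols of this list were found, 9 were detected and 3 of those had a locus of their own. Over all loci 13467 of 32052 were detected, a share not far below 9 of 19, though the list counts symbols and not loci. Gprc5c, an orphan receptor, had 214 compatible fragments per kb (SD 49.0, n = 21), above the 128 of Tas1r1. By its coding form Tas1r1 had 211 (SD 40.0), level with Gprc5c by its longest transcript. Gprc5a had 78.6 per kb (SD 50.8) and Gabbr1, a subunit of the receptor for GABA, had 22.4 (SD 11.1). Gprc5b had 3986 compatible fragments, or up to 881 per kb, at a locus of 5 symbols. Some other candidate sensors of amino acids were scarce. The glutamate receptor gene Grm4 had a mean of 5.52 compatible fragments, and Gprc6a, a receptor for basic amino acids, was listed at 0. Casr, the calcium-sensing receptor, had 40.5 compatible but 784 total fragments, at a locus shared with Gm25902.

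Listed candidate sensors of sugars and amino acids outside the family were below Tas1r1 where they had a locus of their own, while some shared loci allow higher levels. Of 22 symbols for other sugar and amino acid sensors 20 were found and 14 detected, 6 in a locus of their own. Over all loci 13467 of 32052 were detected. Per kb, 0 of the 6 were above Tas1r1. The highest were Slc2a8, a glucose transporter, with 64.5 per kb (SD 17.6), Lpar5, a lysophosphatidic acid receptor, with 43.8 (SD 24.7), and Slc2a4, the insulin-responsive glucose transporter, with 40.3 (SD 15.9). The sodium-coupled glucose transporter Slc5a1 had 3935 compatible fragments, or up to 958 per kb, at a locus it shares with 5033423K11Rik and Gm15936. At shared loci too, the glucose transporter Slc2a1 had 2306 (up to 885 per kb) and the amylase gene Amy1 had 1470 (up to 741 per kb). The potassium channel subunits Abcc8 and Kcnj11 had 59.2 and 3.52 compatible fragments, with totals of 153 and 123.

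Hormone genes linked to sweet taste were detected for 10 of 20 symbols, 8 in a locus of their own. Over all loci 13467 of 32052 were detected, a share not far below 10 of 20, which again counts symbols and not loci. Adipor1, an adiponectin receptor, had 2544 compatible fragments per kb (SD 155.5, n = 21). Daglb, an enzyme that makes an endocannabinoid, had 459.5 (SD 50.7), and Oxtr, the oxytocin receptor, had 307 (SD 88.2). Among the 8, these 3 were above Tas1r1. Npy, not detected at 0.336 compatible fragments, had 2618 per kb by total fragments, against 129 for Tas1r1. At shared loci, Insr had up to 216 compatible fragments per kb and Vipr2 up to 23.1. The receptors for leptin and endocannabinoids, Lepr and Cnr1, had means of 1.34 and 0.189 compatible fragments. Gcg, the glucagon and GLP-1 precursor, was listed at 0 in both columns.

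Genes beside the receptors on the chromosome did not share one level. Zbtb48 starts 242 bases from the end of Tas1r1 and had 33.3 compatible fragments per kb (SD 11.5, n = 21). Tas1r1 had 128, or 211 by its coding form. Nol9, whose start lies 752 bases from that of Tas1r1 on the other strand, had 217 per kb (SD 46.2). Klhl21, another listed neighbour, had 156 per kb (SD 24.1). Against the coding form of Tas1r1, Nol9 was thus level and Klhl21 lower, each by its longest transcript. Cptp, 1360 bases from Tas1r3, had 633 per kb (SD 85.2). Pax7, a muscle lineage factor on the list of genes near Tas1r2, had 0.0495 compatible but 85.6 total fragments.

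For the locus of Tas1r3 and Dvl1 the compatible fragments varied less between libraries of a set than at most detected loci of its level, while Tas1r1 and the locus of Tas1r2 were near the middle. The authors fitted a variance to the mean level, and the log2 ratio of observed to fitted variance has a median of −0.65 over detected loci, with quartiles of −1.25 and 0.03. Tas1r1 had a log2 ratio of −0.94, its SD of 114.6 standing against a fitted 158.7. The locus of Tas1r2 also had −0.94 (SD 493.2 against 683.2), and that of Tas1r3 and Dvl1 had −1.46 (282.0 against 467.2). Of detected loci, 37.2% had a lower ratio than the Tas1r1 and Tas1r2 loci and 18.3% a lower one than that of Tas1r3. Relative to the median of detected loci the 3 ratios were −0.29, −0.29 and −0.81. Against a running median of loci with like levels, Tas1r1 stood at −0.05, Tas1r2 at −0.17 and Tas1r3 at −0.61. A variance estimated with 18 degrees of freedom has a log2 SD of about 0.48, and −0.61 lies not far beyond it. With total fragments and that median they stood at −0.19, −0.07 and 0.05, so the low value at Tas1r3 held for compatible fragments only. At a shared locus, opposite changes of the genes within it would cancel, so only the Tas1r1 ratio is that of a receptor gene alone.

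**Figure D4:**
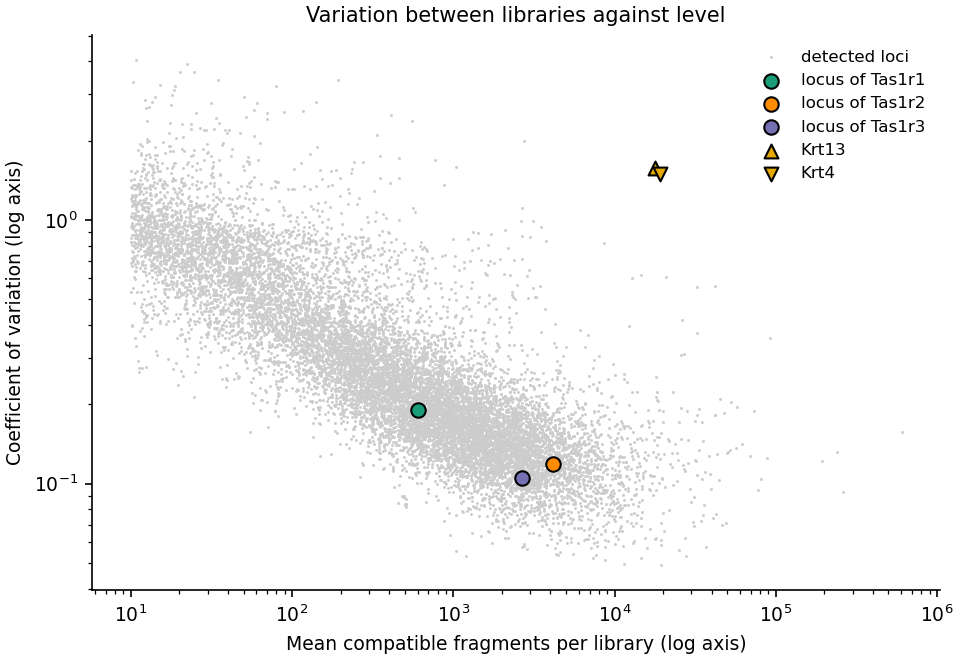
Coefficient of variation against mean compatible fragments per library (both log axes) for the detected loci (grey), the 3 receptor loci (circles) and the surface keratins Krt4 and Krt13 (triangles). The receptor loci lie within the grey band at CVs of 0.190, 0.119 and 0.105, and the keratins lie far above it at 1.50 and 1.58.

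The tissue label could be set against marker genes, beside a base share of 13467 detected among all 32052 loci. Detected were 6 of 6 type II markers, 5 of 5 type III markers, 2 of 3 type I markers and 5 of 5 taste bud keratin and progenitor genes. Of these, 3, 3, 1 and 4 had a locus of their own, and the rest share loci. Surface and basal tongue epithelium was present too, with 6 of 6 genes detected, and at its genes the median log2 variance ratio was 5.56, against −0.80 at type II markers in a locus of their own. Fibroblast markers were detected for 1 of 4 genes and skeletal muscle for 2 of 3 found, both of these at shared loci. Von Ebner gland markers were detected for 1 of 4 genes and leukocyte markers for 2 of 4. Those detected included Dcn of fibroblasts, with 364 compatible fragments, and, at shared loci, Amy1 with 1470 and the leukocyte genes Csf1r with 510.8 and Ptprc with 47.4. Other defining genes were at or near 0, as Col1a1 (0.180), Obp2a (0) and Cd3e (0). Their part in the receptor levels was not tested. The compatible means of all loci add up to 21881979 fragments. Whether surface epithelium in a library moved with its receptor levels was not tested, since no level per library is given.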

How the data were processed

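Per the submitters' processing notes, the tools were TopHat with Bowtie2, Cuffdiff, Cufflinks, FastQC and Trimmomatic, on GRCm38.p4. Their order, versions and settings: not given in the sources used here. Complementary DNA was primed with oligo(dT), per the labels. The authors deposited, for each locus, a signal: the mean of scaled fragments, not divided by length. Beside it stand variances whose square root is given as SD. Their divisor was 21, not the 18 residual degrees of freedom of 3 sets. Transcripts were placed in loci by coordinates. All 19 reference transcripts of the 7 genes at these loci that GENCODE M21 also holds had identical exons there. Tas1r2 had been assumed to have its own locus, and its ratio to Tas1r1 became an upper limit. No contrast between feeding groups and no likeness of genes over libraries could be computed. Named list genes were the 3 with most compatible fragments per list at single-gene loci, others being named after their values were seen. The level of a single item is not reported here. The members and lists were chosen with earlier results of these data known. A tolerance of 0.0001 was used to match set sizes, and the step was tested on simulated data. Coding sequences were aligned with Biopython 1.88 (match 1, mismatch −1, gap opening −5, extension −0.5). Tables were made with pandas 2.3.3 and numpy 2.4.6 and drawn with matplotlib 3.10.9 (Python 3.11.15). Alternatives covered length, fragment type, detection minimum (1 or 50 in place of 10), single-gene loci and a running median of variance over 201 loci.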

Additional observations from a re-analysis of the deposited data

How the results depend on the processing

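No paired analysis was possible because the deposited columns carry no value per library, and leaving out libraries was not run for the same reason. Of 46 alternative values, 32 moved by less than the spread between libraries (for counts, by a factor of at most 1.5). For log2 variance ratios this spread was taken as 0.48. Chosen after the data were seen were the coding transcript as length, the summed length of 6 genes and the Tas1r3 ratio. With the coding transcript, Tas1r1 had 211 fragments per kb, and the limits on the ratios of Tas1r2 and Tas1r3 to it became 6.47 and 3.62. The Tas1r2 limit is for its form of 3047 bases. Summed lengths gave 237 per kb for the locus of Tas1r2 and 324 for that of Tas1r3. By total fragments Tas1r3 had 4040.4 fragments, 1147 per kb and a ratio limit of 8.90. Its variance ratio less the median was −0.81, −0.61 against a running median, and turned to 0.05 with total fragments and a running median together. The cause was not tested. Single-gene loci lowered detected genes from 16 to 8 in the cascade, 14 to 6 among other sensors, 9 to 3 in class C and 8 to 5 beside the receptors, because fewer genes could count. At a mean of 1 fragment, class C rose to 15.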
